A study of Arabidopsis thaliana with 12 samples.

Results

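A set of 10 genes that mark the early response to singlet oxygen in Arabidopsis thaliana was followed across 12 RNA-seq libraries of seedlings. They are 10 of the 27655 genes listed in the deposited tables, and were picked by gene identifier, with earlier results of these data known. They comprise the AAA-ATPase gene AT3G28580, the C2-domain genes BAP1 and BAP2 with their copine partner BON1, the flotillin genes FLOT1, FLOT2 and FLOT3, the kinase gene OXI1, and the sigma factor binding protein genes SIB1 and SIB2. The seedlings belonged to 2 double mutant lines, flu1-5 ex1 and flu1-1 ex1, which carry different alleles of flu and both carry ex1. Seeds were stratified for 2 days at 4 °C, and the seedlings grew for 6 days at 22 °C without a night. Each line was sampled after 4 h of darkness followed by 1 h of light, called light below, and after 4 h of darkness alone, called dark. The 4 groups were flu1-5 ex1 in light, flu1-5 ex1 in dark, flu1-1 ex1 in light and flu1-1 ex1 in dark, with 3 libraries in each. Every group, the dark ones included, carries a flu allele and ex1, and the further 1 h passed in light only. Effects of singlet oxygen, of light and of elapsed time therefore cannot be told apart in any light against dark comparison. The nature of the flu1-1, flu1-5 and ex1 lesions is not given in the sources used here, and each line stands for 1 combination of alleles.

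FLU holds back the synthesis of chlorophyll precursors in darkness. When it is lost, protochlorophyllide accumulates in the dark and, once light returns, passes energy to oxygen and forms singlet oxygen inside the plastid. EXECUTER1 (EX1) is a plastid protein that relays much of this signal to the nucleus, and the title of the series poses the question of which stress responses do not need it. Among nuclear genes used to follow the response, OXI1 encodes a protein kinase of oxidative stress signalling, BAP1 and BAP2 restrain cell death together with BON1, and SIB1 and SIB2 act in the plastid and the nucleus. Flotillins are scaffold proteins of membrane microdomains.

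Levels are in TPM, the share of a gene's transcript among all transcripts after correction for length, so they may be compared between genes, but the number of reads behind them is unknown. FLU itself stood at 15.5 ± 1.46 TPM in flu1-5 ex1 in light and 14.2 ± 1.21 TPM in flu1-5 ex1 in dark, against 191 ± 1.65 TPM in flu1-1 ex1 in light and 190.3 ± 6.33 TPM in flu1-1 ex1 in dark (SD, n = 3 each). EX1 transcript was present in all groups, at 81.0 ± 6.66 TPM in flu1-5 ex1 in light, 45.3 ± 0.47 TPM in flu1-5 ex1 in dark, 51.0 ± 1.81 TPM in flu1-1 ex1 in light and 40.1 ± 2.64 TPM in flu1-1 ex1 in dark, so its level does not check the ex1 label. FLU separates the lines as the library descriptions do, whereas 1 label field gives flu1-1 for all 12 libraries. From 17660 to 18169 genes reached 1 TPM per library, and libraries of 1 group correlated across genes at r = 0.996 to 0.9964 on the log2(TPM + 1) scale. Nothing states that the replicates, about 100 seedlings each per the file headers, were grown apart, so the spread behind each p-value is that of these samples and may be partly technical. Green tissue markers were high in all libraries (RBCS1A at 15399 to 17855 TPM), the pollen marker PPME1 was listed at 0 in all 12, and 4 of the 5 root markers were listed. The summed level of those root markers was 703 to 709 TPM in flu1-5 ex1 in light, 857 to 929 TPM in flu1-5 ex1 in dark, 961 to 999.6 TPM in flu1-1 ex1 in light and 851 to 865 TPM in flu1-1 ex1 in dark. PYK10 alone made up nearly all of that sum, at 695 to 996 TPM. The root peroxidase gene AT4G11290 had 3.23 to 6.72 TPM, while EXPA7 had at most 0.542 TPM and AT3G59370 at most 0.567 TPM. The 4 green tissue markers summed to 37556 to 39559 TPM in flu1-5 ex1 in light, 45984 to 46710 TPM in flu1-5 ex1 in dark, 38477 to 39254 TPM in flu1-1 ex1 in light and 48628 to 50653 TPM in flu1-1 ex1 in dark. The 3 seed markers summed to 4.67 to 8.05 TPM in flu1-5 ex1 in light, 7.30 to 9.13 TPM in flu1-5 ex1 in dark, 2.50 to 4.84 TPM in flu1-1 ex1 in light and 10.4 to 11.3 TPM in flu1-1 ex1 in dark. The part of these shifts in the results below was not tested, and in whole seedlings a change in the share of a cell type and a change in RNA per cell cannot be told apart.

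In flu1-5 ex1, 9 of the 10 genes were higher in light than in dark and FLOT2 alone was lower. All 10 passed the threshold (limma on log2(TPM + 1), adjusted p under 0.05 over all genes tested), at a background of 38.4% of 18145 genes called higher and 29.3% called lower (67.8% in all). Of the 9, 7 were higher by at least 2-fold on that scale, which 9.98% of all genes were. In flu1-1 ex1, 7 of the 10 reached a mean of 1 TPM and were tested, and all 7 were called higher, where 44.0% of 18042 genes were called higher and 28.6% lower (72.6% in all). Among these 7, OXI1, FLOT3 and SIB1 were higher by at least 2-fold, against 11.7% of all genes. The median log2 change of the 10 genes was 2.30 in flu1-5 ex1, where that of all genes tested was 0.05. In flu1-1 ex1 the median was 0.63 over the 10, where that of all genes tested was 0.12. In flu1-5 ex1 the AAA-ATPase gene and BAP2 reached the mean of 1 TPM needed for a test through the light libraries alone, and FLOT2 through the dark ones, as OXI1 and SIB1 did through the light libraries in flu1-1 ex1. Such genes had to differ once tested, so these counts describe the 10 genes and support nothing further.

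**Figure D1:**
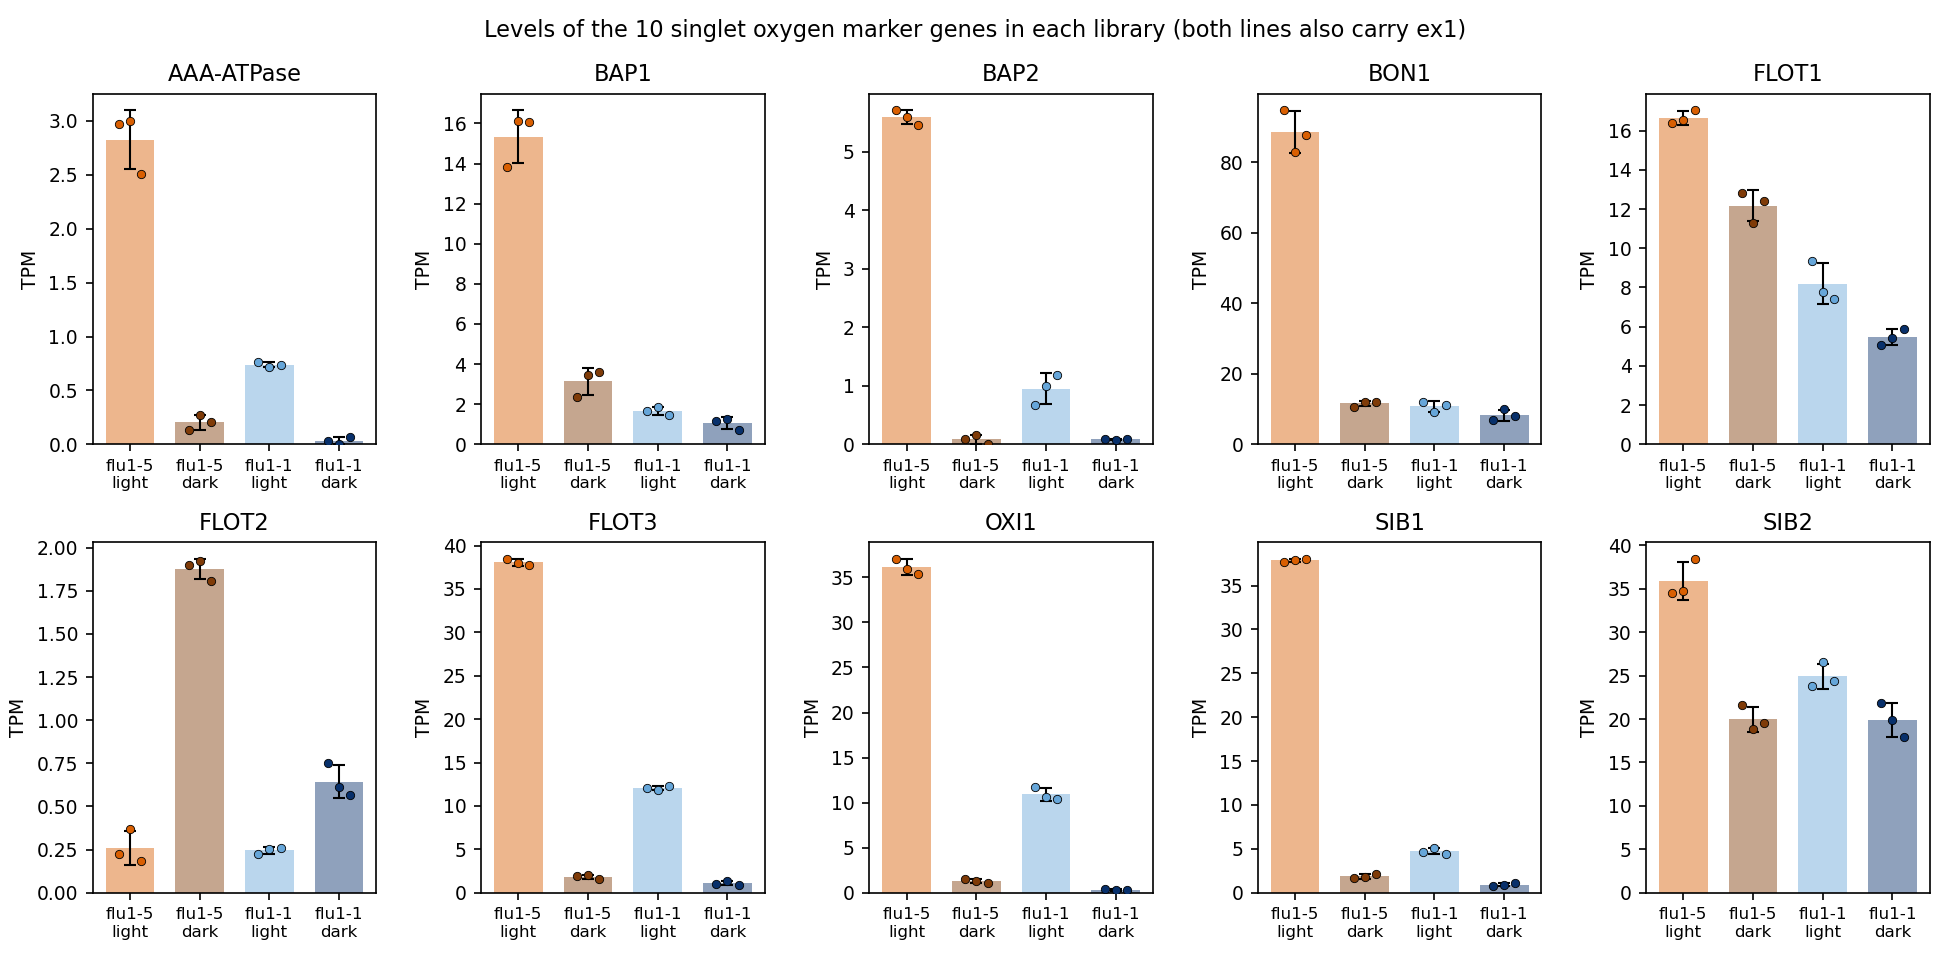
Level in TPM (linear axes from 0, each gene on its own scale) of the 10 marker genes in the 4 groups; points are libraries, bars the group mean and whiskers the SD (n = 3). In 9 panels flu1-5 ex1 in light is the highest group, BON1 stands at 88.5 ± 5.92 TPM there and at 8.21 to 11.6 TPM on average in the other groups, and FLOT2 is highest in flu1-5 ex1 in dark.

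The AAA-ATPase gene (AT3G28580, TAIR10.1 chr3:10715597-10717393, plus strand, 1 exon) is a classic transcript marker of singlet oxygen in flu seedlings and was among the lowest of the 10. It had 2.97, 3.00 and 2.51 TPM in flu1-5 ex1 in light, against 0.137, 0.272 and 0.203 TPM in flu1-5 ex1 in dark. The flu1-1 ex1 seedlings had 0.762, 0.721 and 0.732 TPM in light, against 0.0336, 0 and 0.0708 TPM in dark. Light libraries exceeded dark libraries without overlap in both lines, and every light library of flu1-5 ex1 exceeded every light library of flu1-1 ex1. The rise in flu1-5 ex1 was 1.67 on the log2 scale (SE 0.12, limma adjusted p = 2.75e-06). In flu1-1 ex1 its mean was under 1 TPM and it was not tested, and with no filter on low values the log2 change was 0.75 (limma adjusted p = 2.57e-05). The authors' deposited p-value for this gene in that line, without adjustment here, was 0.00472.

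BAP1 (AT3G61190, chr3:22650454-22651636, minus strand, 1 exon) encodes a C2-domain membrane protein that holds back cell death. It had 13.8, 16.1 and 16.1 TPM in flu1-5 ex1 in light, against 2.34, 3.44 and 3.61 TPM in flu1-5 ex1 in dark. In flu1-1 ex1 it had 1.67, 1.88 and 1.45 TPM in light, against 1.17, 1.28 and 0.714 TPM in dark. Both pairs of groups stood apart, by a wide gap in flu1-5 ex1 and a narrow one in flu1-1 ex1. BAP1 rose by 1.99 in flu1-5 ex1 (log2, SE 0.13, limma adjusted p = 1.45e-06). In flu1-1 ex1 its rise was 0.38 (SE 0.15, limma adjusted p = 0.0436). That call was lost with quantile normalization (adjusted p = 0.278), a pseudocount of 0.1 TPM (0.0526) and the authors' deposited p-values after adjustment (0.304). It was also lost without light replicate 1 or 2 (limma adjusted p = 0.0899 and 0.124) and without dark replicate 1 or 3 (0.0582 and 0.143).

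BAP2 (AT2G45760, chr2:18846944-18847835, minus strand, 1 exon), the relative of BAP1 with 69.6% identity over the aligned coding bases, was close to 0 in dark in both lines. It had 5.70, 5.59 and 5.46 TPM in flu1-5 ex1 in light, against 0.0836, 0.164 and 0 TPM in flu1-5 ex1 in dark. The flu1-1 ex1 seedlings had 0.668, 0.995 and 1.19 TPM in light, against 0.0816, 0.0812 and 0.0867 TPM in dark. The lines thus overlapped in dark and were well apart in light. The rise in flu1-5 ex1 was 2.61 (log2, SE 0.11, limma adjusted p = 8.07e-08). In flu1-1 ex1 BAP2 was below the level tested, and with no filter the log2 change was 0.84 (limma adjusted p = 0.000296). The authors' deposited p-value for BAP2 in that line, without adjustment here, was 0.04999.

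BON1 (AT5G61900, chr5:24855661-24859341, minus strand, 17 exons) encodes a copine, a calcium-dependent membrane-binding protein that binds BAP1 and BAP2 and restrains immune receptor signalling. It reached the highest level of the 10 genes, with 94.8, 83.0 and 87.8 TPM in flu1-5 ex1 in light, against 10.6, 11.97 and 12.09 TPM in flu1-5 ex1 in dark. The flu1-1 ex1 seedlings had 12.12, 9.14 and 11.01 TPM in light, against 6.80, 9.88 and 7.94 TPM in dark. The light libraries of flu1-1 ex1 overlapped both its own dark libraries and the dark libraries of flu1-5 ex1. BON1 rose by 2.83 in flu1-5 ex1 (log2, SE 0.07, limma adjusted p = 1.83e-09). In flu1-1 ex1 the change was 0.36 (SE 0.14, limma adjusted p = 0.0428), a call that was lost with quantile normalization (0.207), with no filter (0.0664) and with the authors' deposited p-values after adjustment (0.0644). Without light replicate 1 or 3 the limma adjusted p was 0.138 and 0.104, and without dark replicate 1 or 3 it was 0.133 and 0.102.

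The 3 flotillin genes did not share a pattern. FLOT3 (AT5G64870, chr5:25929432-25931384, minus strand, 2 exons) had 38.5, 38.0 and 37.7 TPM in flu1-5 ex1 in light, against 1.90, 2.05 and 1.56 TPM in flu1-5 ex1 in dark. In flu1-1 ex1 it had 12.1, 11.8 and 12.3 TPM in light, against 1.07, 1.39 and 0.952 TPM in dark. FLOT3 thus stood far apart between light and dark in both lines, and mean light levels were 20.7 times the dark ones in flu1-5 ex1 and 10.6 times in flu1-1 ex1. Its rises were 3.79 in flu1-5 ex1 (log2, SE 0.08, limma adjusted p = 1.03e-09) and 2.62 in flu1-1 ex1 (SE 0.10, limma adjusted p = 3.88e-08).

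FLOT1 (AT5G25250, chr5:8749680-8751636, plus strand, 2 exons) changed little. It had 16.4, 16.6 and 17.0 TPM in flu1-5 ex1 in light, against 12.8, 11.3 and 12.4 TPM in flu1-5 ex1 in dark. The flu1-1 ex1 seedlings had 9.37, 7.77 and 7.41 TPM in light, against 5.08, 5.44 and 5.88 TPM in dark. All 4 groups stood apart from each other, the 2 groups of flu1-5 ex1 above the 2 of flu1-1 ex1. The rises were small, at 0.42 in flu1-5 ex1 (log2, SE 0.06, limma adjusted p = 0.000285) and 0.50 in flu1-1 ex1 (SE 0.10, limma adjusted p = 0.0017).

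FLOT2 (AT5G25260, chr5:8752684-8754522, plus strand, 2 exons) ran the other way. It had 0.224, 0.372 and 0.186 TPM in flu1-5 ex1 in light, against 1.90, 1.92 and 1.81 TPM in flu1-5 ex1 in dark. For flu1-1 ex1 the values were 0.222, 0.257 and 0.261 TPM in light, against 0.754, 0.611 and 0.567 TPM in dark. The light libraries of both lines overlapped at a low level, while the dark libraries of flu1-5 ex1 stood above those of flu1-1 ex1. FLOT2 fell by 1.19 in flu1-5 ex1 (log2, SE 0.12, limma adjusted p = 2.7e-05). In flu1-1 ex1 it was not tested, and with no filter the log2 change was -0.40 (limma adjusted p = 0.00195). The authors' deposited p-value for FLOT2 in that line, without adjustment here, was 0.0795.

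FLOT1 and FLOT2 lie 1047 bases apart on the same strand and are near copies, with 90.7% identity over the aligned coding bases and identical coding runs of up to 98 bases. FLOT3 lies elsewhere on chromosome 5 and shares 82.7% with FLOT1 and 80.5% with FLOT2. The same 90 bases of coding sequence are shown for the 3 genes because reads are assigned by such differences, with capitals marking the positions at which the 3 genes do not all hold the same base. They lie at chr5:8749954-8750043 (plus strand) in FLOT1, chr5:8752931-8753020 (plus strand) in FLOT2 and chr5:25931036-25931125 (minus strand) in FLOT3, each written 5′ to 3′ in the direction of transcription.
FLOT1: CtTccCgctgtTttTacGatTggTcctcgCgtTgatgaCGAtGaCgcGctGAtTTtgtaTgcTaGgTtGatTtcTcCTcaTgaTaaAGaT
FLOT2: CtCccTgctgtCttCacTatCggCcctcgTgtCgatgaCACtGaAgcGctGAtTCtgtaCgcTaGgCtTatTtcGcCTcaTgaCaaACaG
FLOT3: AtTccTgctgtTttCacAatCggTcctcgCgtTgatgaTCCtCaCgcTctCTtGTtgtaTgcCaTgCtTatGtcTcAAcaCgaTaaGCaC
Within this stretch FLOT2 differed from FLOT1 at 20 positions and FLOT3 differed from FLOT1 at 24. The stretch is more divergent than the coding sequences as a whole, so it overstates how readily the 3 genes can be separated. Of the 1669 words of 31 bases in the FLOT2 transcript, 440 (26.4%) also occurred in other genes, 126 of them in FLOT1 and 312 in AT5G25265, which RefSeq annotates as a hydroxyproline O-arabinosyltransferase-like gene. AT5G25265 runs on the opposite strand and overlaps the FLOT2 exons by 342 bases, and whether the libraries keep strand is not given in the sources used here. AT5G25265 had 74.4 ± 2.95 TPM in flu1-5 ex1 in light, 154 ± 4.91 TPM in flu1-5 ex1 in dark, 70.1 ± 1.80 TPM in flu1-1 ex1 in light and 152 ± 5.34 TPM in flu1-1 ex1 in dark (SD, n = 3 each). It was thus lower in light in both lines, as FLOT2 was. In dark it was at 154 TPM in flu1-5 ex1 and 152 TPM in flu1-1 ex1, where FLOT2 was at 1.88 and 0.644 TPM. The part of AT5G25265 in the FLOT2 values was not tested. The level of FLOT2 is therefore uncertain, whereas 7.78% of FLOT1 words and 0.38% of FLOT3 words occurred in other genes. BAP1, BAP2, BON1, OXI1, SIB1 and SIB2 shared no such word with another gene, and the AAA-ATPase gene shared 7 with its relative AT5G40010.

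**Figure D2:**
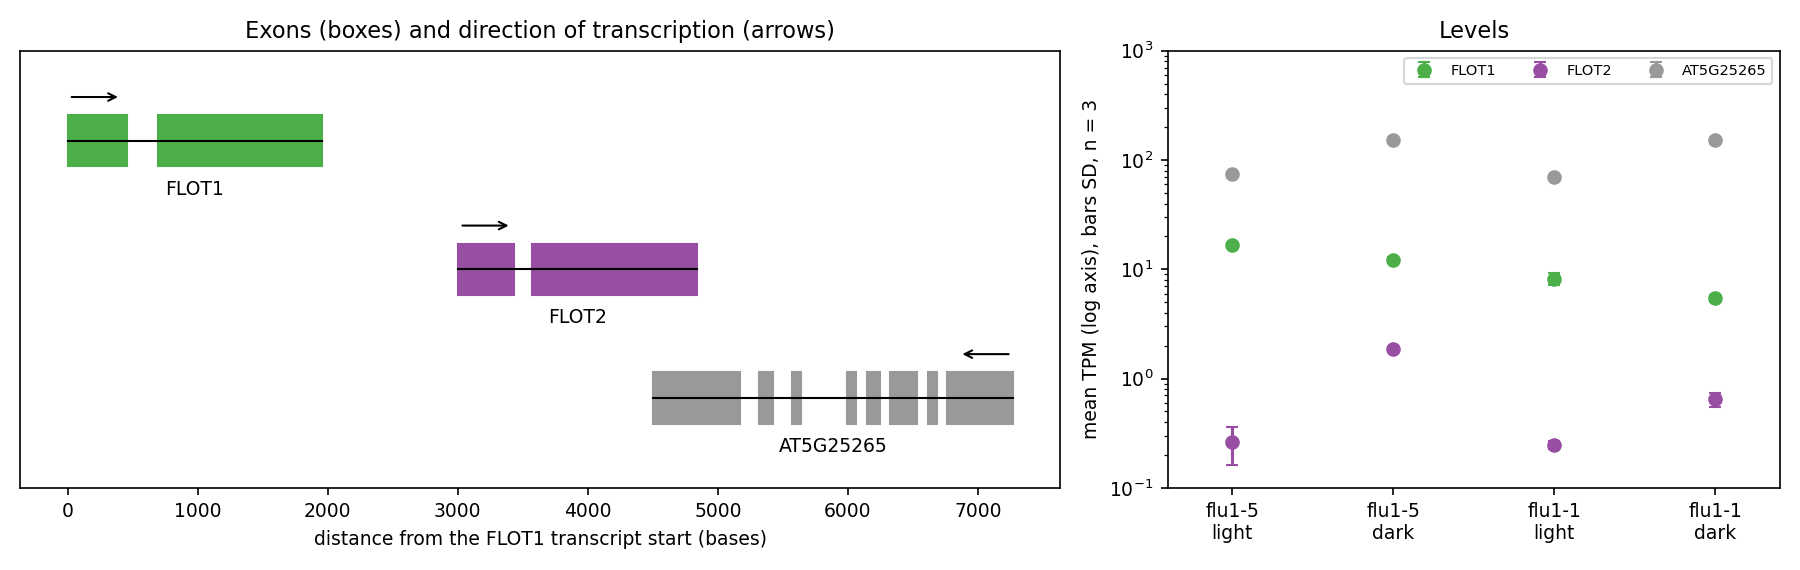
Left, exons (boxes) and direction of transcription (arrows) of FLOT1, FLOT2 and AT5G25265 by distance in bases from the FLOT1 transcript start; right, mean TPM on a log axis with SD (n = 3) of the same genes in the 4 groups. The 3′ end of FLOT2 lies over exons of AT5G25265, which is at 70.1 to 154 TPM where FLOT2 is at 0.246 to 1.88 TPM, and both are lower in light than in dark in each line.

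OXI1 (AT3G25250, chr3:9195334-9197126, plus strand, 2 exons) encodes an AGC-family protein kinase induced by reactive oxygen and needed for part of the cell death that singlet oxygen brings about. It had 37.1, 35.9 and 35.3 TPM in flu1-5 ex1 in light, against 1.49, 1.25 and 1.10 TPM in flu1-5 ex1 in dark. For flu1-1 ex1 the values were 11.7, 10.6 and 10.4 TPM in light, against 0.438, 0.256 and 0.269 TPM in dark. The 4 groups did not overlap. On the log2(TPM + 1) scale OXI1 had the largest rise of the 10 genes in each line, 4.03 in flu1-5 ex1 (SE 0.08, limma adjusted p = 7.86e-10) and 3.17 in flu1-1 ex1 (SE 0.10, limma adjusted p = 1.45e-08). By rank it stood at 71 of 18145 genes in flu1-5 ex1 and at 134 of 18042 genes in flu1-1 ex1, counted from the largest rise. The first place depends on the constant added, since with 0.1 TPM the rise in flu1-5 ex1 was 5.07 for BAP2 and 4.72 for OXI1.

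SIB1 (AT3G56710, chr3:21006638-21008064, minus strand, 1 exon) encodes a VQ-motif protein that binds a plastid sigma factor and, in the nucleus, WRKY factors. It had 37.7, 37.9 and 38.0 TPM in flu1-5 ex1 in light, against 1.67, 1.77 and 2.14 TPM in flu1-5 ex1 in dark. For flu1-1 ex1 the values were 4.69, 5.10 and 4.41 TPM in light, against 0.760, 0.885 and 1.17 TPM in dark. No libraries of different groups overlapped, and the light level of flu1-5 ex1 stood far above the other 3 groups. Its rises were 3.77 in flu1-5 ex1 (log2, SE 0.08, limma adjusted p = 9.01e-10) and 1.57 in flu1-1 ex1 (SE 0.12, limma adjusted p = 3.25e-06).

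SIB2 (AT2G41180, chr2:17165191-17166025, plus strand, 1 exon), a shorter relative with 76.2% identity to SIB1 over the aligned coding bases, was already well expressed in dark. It had 34.5, 34.8 and 38.5 TPM in flu1-5 ex1 in light, against 21.6, 18.8 and 19.5 TPM in flu1-5 ex1 in dark. In flu1-1 ex1 it had 23.8, 26.5 and 24.4 TPM in light, against 21.9, 19.8 and 17.9 TPM in dark. Light and dark libraries did not overlap within a line, and the dark libraries of the lines did. SIB2 rose by 0.82 in flu1-5 ex1 (log2, limma adjusted p = 5.56e-06). In flu1-1 ex1 the rise was 0.31 (SE 0.08, limma adjusted p = 0.00473), and with quantile normalization it was 0.18 and missed the threshold (adjusted p = 0.0601).

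Quantile normalization moved the median of all genes by -0.12 in flu1-5 ex1 and by -0.14 in flu1-1 ex1 on the log2 scale. With it, the share of higher genes among all called went to 44.6%, against 56.7% without it, in flu1-5 ex1, and to 48.6%, against 60.6% without it, in flu1-1 ex1. Of the 7 genes called in flu1-1 ex1, OXI1, FLOT3, SIB1 and FLOT1 kept their call under that scaling. The light and dark libraries of the 10 genes did not overlap in flu1-5 ex1, with 9 higher and 1 lower in light. Over the 23835 genes not listed at 0 in all libraries of that line, 34.6% were higher and 25.5% lower without overlap. In flu1-1 ex1 the light and dark libraries did not overlap for 9 of the 10 genes, 8 higher and 1 lower, against 38.5% and 24.6% of 23772 such genes, and BON1 overlapped.

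**Figure D3:**
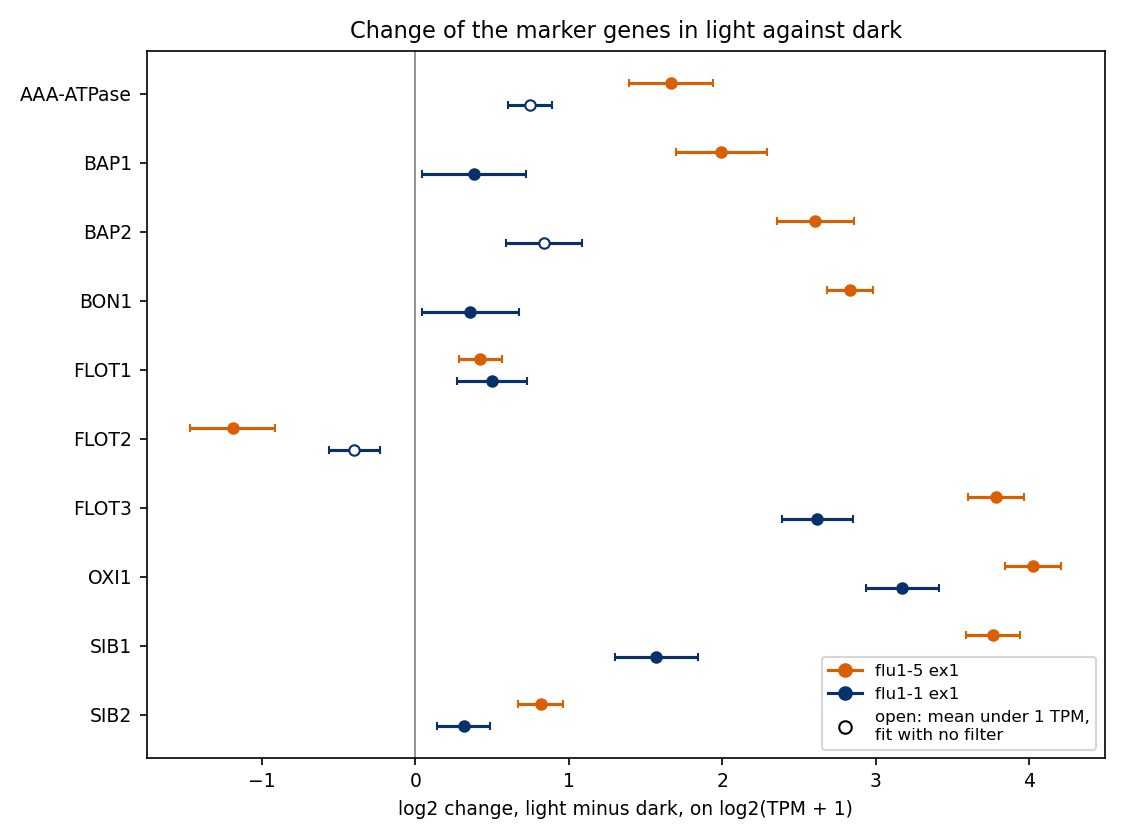
Log2 change of each marker gene in light minus dark, on log2(TPM + 1), with 95% intervals from limma (6 libraries per line); open points are genes with a mean under 1 TPM, fitted without the filter. OXI1, FLOT3 and SIB1 lie at 3.77 to 4.03 in flu1-5 ex1, the flu1-1 ex1 point is the smaller for 8 of the 9 genes that were higher, and for FLOT1 the intervals overlap.

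The order of the levels also differed between groups. In flu1-5 ex1 in light BON1 came first at 88.5 ± 5.92 TPM, followed by FLOT3, SIB1, OXI1 and SIB2, which all lay between 34.5 and 38.5 TPM. Among neighbours in that order, FLOT3 overlapped SIB1 and OXI1 overlapped SIB2, while SIB1 stood just above OXI1. FLOT1 (16.7 ± 0.345 TPM) and BAP1 (15.3 ± 1.33 TPM) were next, then BAP2, the AAA-ATPase gene and FLOT2. In both dark groups SIB2 led, at 20.0 ± 1.45 TPM in flu1-5 ex1 and 19.9 ± 1.97 TPM in flu1-1 ex1, and FLOT1 and BON1 came next. These overlapped in flu1-5 ex1, whereas in flu1-1 ex1 BON1 stood above FLOT1 without overlap. In flu1-1 ex1 in light SIB2 still led at 24.9 ± 1.42 TPM, and FLOT3, OXI1 and BON1 followed at 12.1 ± 0.24, 10.9 ± 0.683 and 10.8 ± 1.51 TPM (SD, n = 3 each). BON1 overlapped both of the others there, and FLOT3 stood just above OXI1.

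The next comparison asked whether the light effect differed between flu1-5 ex1 and flu1-1 ex1. Of the 8 genes tested, 7 had a larger rise in flu1-5 ex1, OXI1 among them only with 1 or 5 TPM added, and FLOT1 did not pass the threshold, at a background of 11.3% of 17830 genes called in that direction and 18.3% in the other (29.6% in all). On log2(TPM + 1) the difference was at least 2-fold for 5 of the 7, which held for 2.03% of all genes. Which genes passed that mark depended on the constant added. With no filter, FLOT3 was under it with 0.1 TPM added (log2 difference 0.99). With 5 TPM added BAP2 was under it (0.83) and OXI1 above it (1.13). The median over all 10 was 1.04 on the log2 scale, and that of all genes tested was -0.06. BAP2 reached the mean of 1 TPM over the 12 libraries through flu1-5 ex1 in light alone, so it had to differ once tested. This comparison uses the same libraries as the light effects above and is not separate evidence of them.

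On log2(TPM + 1) BON1 had the largest difference of the 10 genes, 2.47 (log2, SE 0.17, limma adjusted p = 2.62e-07), at rank 24 of 17830 genes, whereas with 0.1 TPM added and no filter BAP2 (2.58) came before BON1 (2.53). SIB1 followed with 2.20 (SE 0.13, limma adjusted p = 7.08e-08) at rank 39. For SIB1, light levels were 20.4 times the dark ones in flu1-5 ex1 and 5.05 times in flu1-1 ex1, and for BON1 they were 7.65 and 1.31 times. BAP2 and BAP1 differed by 1.77 (SE 0.17, limma adjusted p = 4.97e-06) and 1.61 (SE 0.20, limma adjusted p = 5.37e-05). FLOT3 differed by 1.16 (SE 0.12, limma adjusted p = 1.37e-05) and SIB2 by 0.50 (SE 0.11, limma adjusted p = 0.00306). The difference for FLOT1 was -0.08, with a 95% interval of -0.33 to 0.17 (limma adjusted p = 0.66).

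For OXI1 the answer depended on the scale. With 1 TPM added before the logarithm, its rise was larger in flu1-5 ex1 by 0.85 (SE 0.12, limma adjusted p = 0.000191). With 0.1 TPM added the difference was -0.0115, with a 95% interval of -0.49 to 0.47 (no filter, limma adjusted p = 0.989), and with 5 TPM added it was 1.13. In TPM the rise was 34.8 in flu1-5 ex1 and 10.6 in flu1-1 ex1, while light levels were 28.2 times the dark ones in flu1-5 ex1 and 33.99 times in flu1-1 ex1. OXI1 thus gained more TPM in flu1-5 ex1, while a difference in the ratio of light to dark was not detectable. The AAA-ATPase gene showed the same dependence, since with no filter its difference was 0.92 with 1 TPM added (limma adjusted p = 5.62e-05) and 0.62 with 0.1 TPM added (limma adjusted p = 0.263). Its light levels were 13.9 times the dark ones in flu1-5 ex1 and 21.2 times in flu1-1 ex1, over dark means of 0.204 and 0.0348 TPM. FLOT2, also below the level tested, was lower in light by more in flu1-5 ex1, with a difference of -0.79 with 1 TPM added (limma adjusted p = 0.000167) and -1.39 with 0.1 TPM added (limma adjusted p = 0.0087). BON1, SIB1, BAP2, BAP1, FLOT3 and SIB2 kept their direction and their call with each of the 3 constants.

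**Figure D4:**
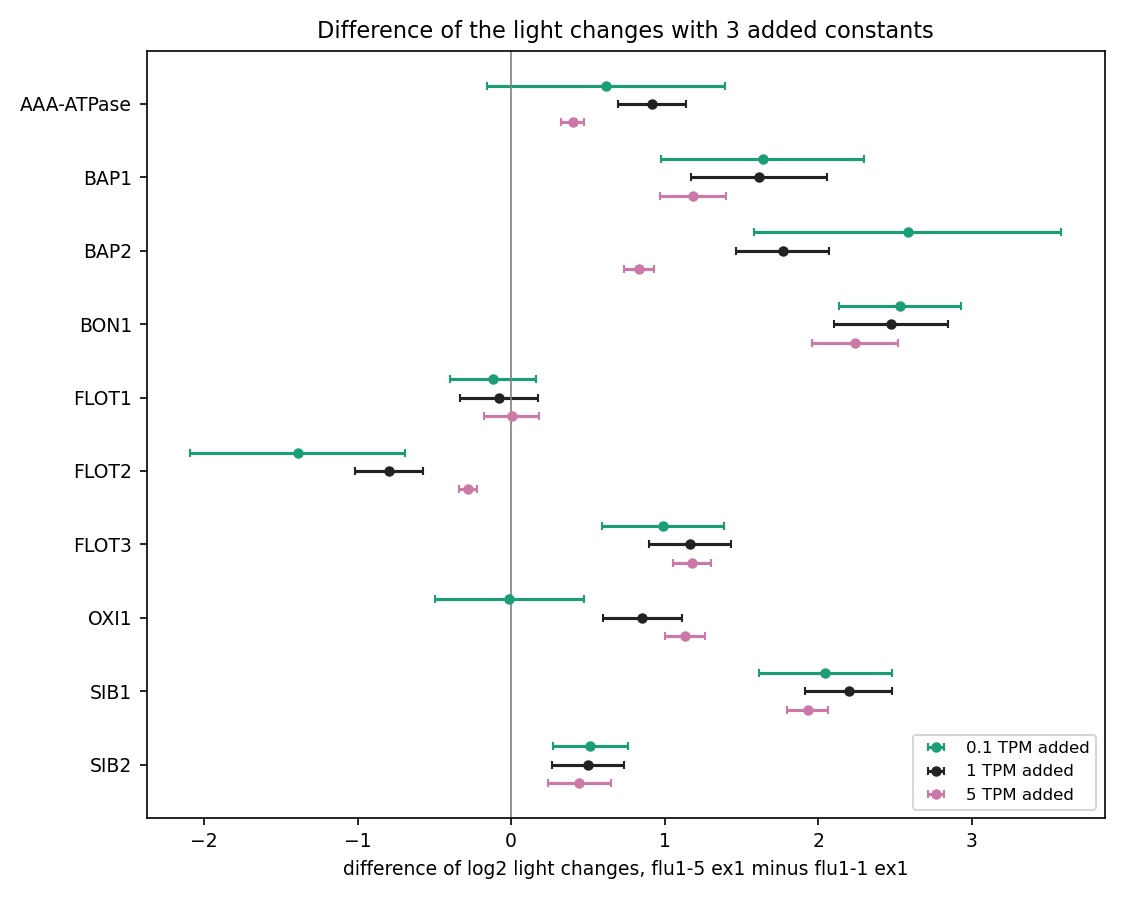
Difference of the log2 light changes, flu1-5 ex1 minus flu1-1 ex1, with 95% intervals from limma over 12 libraries and no filter on low values, after adding 0.1, 1 or 5 TPM. BON1 stays between 2.24 and 2.53 and SIB1 between 1.93 and 2.20, whereas OXI1 moves between -0.0115 and 1.13.

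Set side by side in light, flu1-5 ex1 exceeded flu1-1 ex1 for all 8 genes tested, at a background of 18.1% of genes called higher and 21.0% lower. On log2(TPM + 1) the differences were at least 2-fold for 6 of them, against 3.10% of all genes. BAP2, counted in both, reached the mean of 1 TPM through flu1-5 ex1 in light alone, so it had to differ once tested. They were largest for BON1 (2.93, limma adjusted p = 5.24e-10), SIB1 (2.76, 6.63e-11) and BAP1 (2.62, 6.88e-09). BAP2 (1.76), OXI1 (1.64) and FLOT3 (1.58) followed, and FLOT1 (0.95) and SIB2 (0.51) differed least. Libraries of the lines did not overlap in light for 9 of the 10 genes, all higher in flu1-5 ex1, as for 19.4% of all genes, and FLOT2 overlapped. The lines were deposited in separate tables, and whether they were processed in 1 run is not given in the sources used here.

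The lines also differed before the light came on. In dark, flu1-5 ex1 was higher than flu1-1 ex1 for 6 of the 8 genes tested, at a background of 14.7% of genes called higher and 5.68% lower. On log2(TPM + 1), FLOT1 (1.03, limma adjusted p = 1.2e-06) and BAP1 (1.00, limma adjusted p = 0.000206) differed by at least 2-fold, which 0.897% of all genes did. There OXI1 differed by 0.79 (limma adjusted p = 2.44e-05), SIB1 by 0.56 (0.000824), BON1 by 0.46 (0.014) and FLOT3 by 0.41 (0.00458). That scale understates low genes. By mean TPM in dark, flu1-5 ex1 was at 3.99 times flu1-1 ex1 for OXI1, 2.96 times for BAP1 and 2.23 times for FLOT1. For the AAA-ATPase gene and FLOT2, not tested here, it was at 5.86 and 2.91 times, over flu1-1 ex1 means of 0.0348 and 0.644 TPM. The call for BON1 was lost without flu1-5 ex1 dark replicate 3 (limma adjusted p = 0.0513) or flu1-1 ex1 dark replicate 1 (0.0558), and that for FLOT3 with the 6 dark libraries alone (0.0585). Quantile normalization brought the share of higher genes among all called in dark to 55.3%, against 72.1% without it, and left 6 of the 8 genes called. BAP2 and SIB2 overlapped between lines and missed the threshold, with differences of -0.0035 (95% interval -0.26 to 0.25) and 0.0087 (-0.15 to 0.17). Without overlap, 8 of the 10 genes were higher in dark in flu1-5 ex1, as 20.6% of all genes were, with 10.2% lower without overlap.

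**Figure D5:**
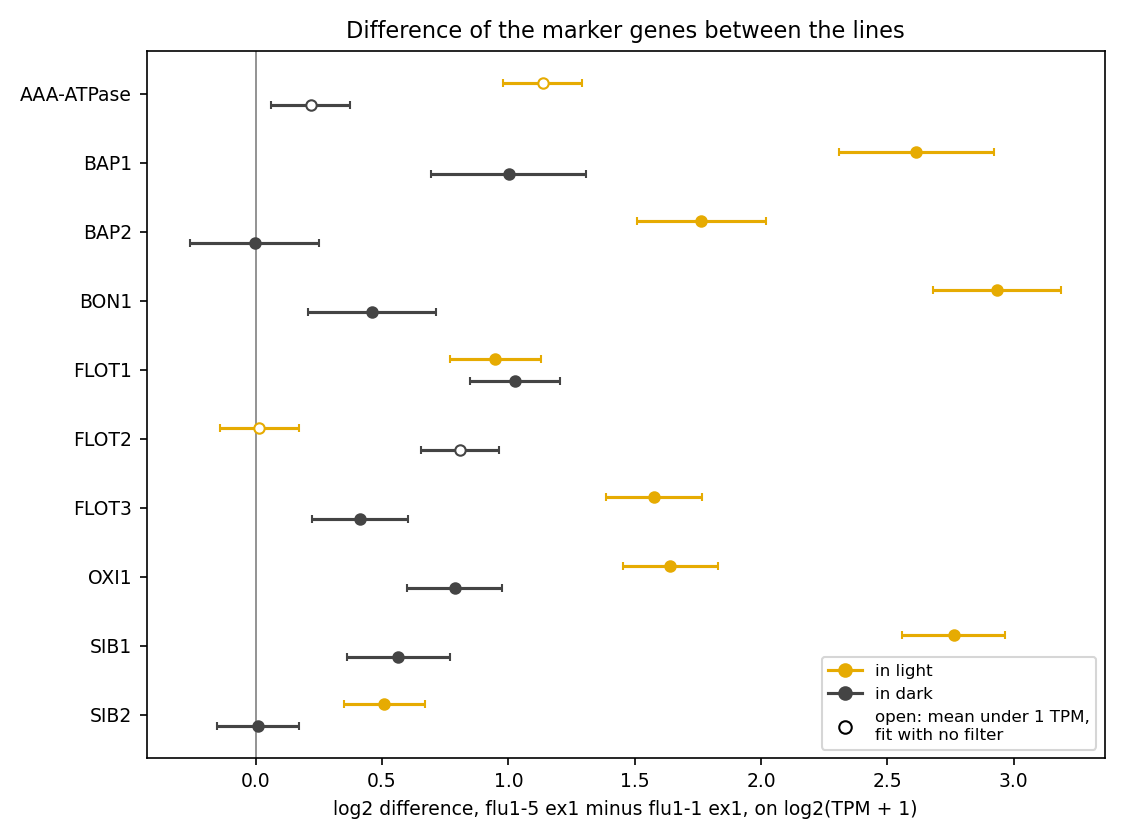
Log2 difference of each marker gene, flu1-5 ex1 minus flu1-1 ex1, on log2(TPM + 1), within light and within dark, with 95% intervals from limma over 12 libraries; open points are genes with a mean under 1 TPM, fitted without the filter. Differences in light reach 2.93 for BON1, those in dark stay at or under 1.03, and for FLOT1 the difference is of like size in both conditions (0.95 in light and 1.03 in dark).

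The sequences before the transcript starts were also read, for 8 genes that were higher in flu1-5 ex1 in light and for FLOT2, which was lower. The 250 bases upstream of the annotated transcript start of these 9 genes were searched on both strands for TTGAC (the core of the W-box bound by WRKY factors), CGCGTT (the rapid stress response element), TGACG (the core of the as-1 element bound by TGA factors) and CACGTG (the G-box). TTGAC occurred in 5 of the 9 promoters (AAA-ATPase, BAP2, BON1, FLOT2 and OXI1) and in 44.8% of 27442 promoters. CGCGTT occurred in SIB2 alone and in 741 of all 27442 promoters. TGACG occurred in OXI1 alone and in 18.7% of all promoters, and CACGTG in OXI1 alone and in 6.62%. BAP1, FLOT1 and SIB1 held none of the 4 motifs in this window. No motif was thus found in more than 5 of the 9, and a match is a description of letters, not a binding site. The promoters of OXI1, SIB1 and BON1, which had the largest rises of these 9 genes in flu1-5 ex1 on log2(TPM + 1), though not with 0.1 TPM added, are shown 5′ to 3′ in the direction of transcription, with capitals marking the motifs on either strand. They are chr3:9195084-9195333 (plus strand) for OXI1, chr3:21008065-21008314 (minus strand) for SIB1 and chr5:24859342-24859591 (minus strand) for BON1, from the RefSeq annotation of TAIR10.1.
OXI1: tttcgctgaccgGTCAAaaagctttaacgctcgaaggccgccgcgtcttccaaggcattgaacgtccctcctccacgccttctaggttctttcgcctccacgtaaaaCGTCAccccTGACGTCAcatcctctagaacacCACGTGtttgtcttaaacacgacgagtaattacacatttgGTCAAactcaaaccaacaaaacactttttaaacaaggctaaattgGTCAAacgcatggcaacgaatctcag
SIB1: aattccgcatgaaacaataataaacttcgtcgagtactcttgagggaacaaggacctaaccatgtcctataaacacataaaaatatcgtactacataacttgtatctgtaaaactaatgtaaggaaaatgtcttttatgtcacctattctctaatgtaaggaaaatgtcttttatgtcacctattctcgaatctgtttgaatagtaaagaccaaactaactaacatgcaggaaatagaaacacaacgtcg
BON1: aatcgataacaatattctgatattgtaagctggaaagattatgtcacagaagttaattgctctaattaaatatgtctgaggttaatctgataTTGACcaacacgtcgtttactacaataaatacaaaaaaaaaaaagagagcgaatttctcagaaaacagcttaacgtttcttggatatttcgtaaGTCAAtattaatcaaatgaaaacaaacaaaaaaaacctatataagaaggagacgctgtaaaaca
OXI1 held 3 copies of TTGAC, 3 of TGACG and 1 of CACGTG, and a pair of its TGACG copies overlap on opposite strands. BON1 held 2 copies of TTGAC, SIB1 held none of the motifs, and so no motif searched was present in all 3.

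Relatives and partners of the 10 genes were counted in 6 lists of 46 genes in all. Their counts stand against 38.4% of all genes called higher and 29.3% lower in flu1-5 ex1, and 44.0% higher and 28.6% lower in flu1-1 ex1. Genes that reach a mean of 1 TPM through 1 condition alone had to differ here too, so the counts are descriptions. Of 9 BCS1-like AAA-ATPase relatives, only AT3G50930, a mitochondrial outer membrane protein gene, reached the level tested. It rose to 64.7 ± 2.05 TPM in flu1-5 ex1 in light, against 4.53 ± 0.386 TPM in dark (log2 change 3.57, limma adjusted p = 4.45e-10), and by 3.35 in flu1-1 ex1 (limma adjusted p = 2.1e-09). Of 5 partners of the copine and BAP proteins, 4 rose and 1 fell in flu1-5 ex1, and 1 of 4 tested rose and 3 fell in flu1-1 ex1. The copine gene BON3 rose by 1.40 (limma adjusted p = 9.54e-06), having reached the mean of 1 TPM through the light libraries alone, and its relative BON2 fell by 0.22 (limma adjusted p = 0.00175) in flu1-5 ex1. In flu1-1 ex1 the immune receptor gene SNC1 rose by 0.56 (limma adjusted p = 0.000371), as it did by 1.09 in flu1-5 ex1 (limma adjusted p = 6.89e-07). The co-receptor kinase gene BAK1 rose by 0.24 in flu1-5 ex1 (limma adjusted p = 0.00204) and fell by 0.36 in flu1-1 ex1 (limma adjusted p = 2.9e-05).

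Of 4 HIR genes, which share the SPFH domain with flotillins, 2 rose and 2 fell in each line. HIR1 rose by 1.47 in flu1-5 ex1 and by 0.51 in flu1-1 ex1, and HIR2 fell by 1.23 and by 1.76 in these lines (limma adjusted p = 1.41e-06, 0.00391, 3.25e-09 and 3.38e-09). Of 8 genes around OXI1, 4 rose and 2 fell in flu1-5 ex1, and 3 rose and 2 fell in flu1-1 ex1, where 38.4% and 29.3% of all genes did in flu1-5 ex1 and 44.0% and 28.6% in flu1-1 ex1. The MAP kinase gene MPK3 had 246 ± 6.41 TPM in flu1-5 ex1 in light, against 78.3 ± 2.15 TPM in dark, a rise of 1.64 (log2, limma adjusted p = 1.07e-09), and its log2 change in flu1-1 ex1 was 0.087 (limma adjusted p = 0.0886). PTI1-2, a kinase that OXI1 phosphorylates, fell by 0.45 in flu1-5 ex1 and by 0.52 in flu1-1 ex1 (limma adjusted p = 0.000276 and 0.000106). AGC2-2, a close relative of OXI1, rose by 0.82 in flu1-5 ex1 and by 0.98 in flu1-1 ex1 (limma adjusted p = 0.00211 and 0.000117), and reached the mean of 1 TPM through the light libraries alone in both lines.

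Of 8 partners of SIB1 and SIB2, 5 rose and 2 fell in flu1-5 ex1, and of 7 tested in flu1-1 ex1, 3 rose and 2 fell, the last near the 44.0% and 28.6% over all genes. GLK1, a transcription factor of chloroplast genes, rose by 2.27 in flu1-5 ex1 and by 2.62 in flu1-1 ex1 (limma adjusted p = 7.29e-10 and 1.5e-10). WRKY75 fell by 1.40 in flu1-5 ex1 (limma adjusted p = 0.000117), having reached the mean of 1 TPM through the dark libraries alone. LSD1, a zinc finger protein that limits cell death, fell by 1.15 in flu1-5 ex1 and by 1.55 in flu1-1 ex1 (limma adjusted p = 2.74e-06 and 1.41e-05). The transcript listed for LSD1 differed between the lines, so these falls are not like for like and LSD1 was left out of the comparisons between lines. Of 12 other early singlet oxygen genes, 10 rose and 2 fell in flu1-5 ex1, and of 11 tested in flu1-1 ex1, 6 rose and 4 fell, against 38.4% higher and 29.3% lower over all genes in flu1-5 ex1 and 44.0% and 28.6% in flu1-1 ex1. WRKY46 reached 99.9 ± 2.58 TPM in flu1-5 ex1 in light, against 1.24 ± 0.129 TPM in dark (log2 change 5.49, limma adjusted p = 4.53e-11). It rose by 2.91 in flu1-1 ex1 (limma adjusted p = 2.32e-08), where it reached the mean of 1 TPM through the light libraries alone. Among the 12, ERF109 reached that mean in flu1-5 ex1 through the light libraries alone, and over all libraries through flu1-5 ex1 in light alone. ZAT12, a zinc finger gene, rose by 3.94 in flu1-5 ex1 and by 3.09 in flu1-1 ex1 (limma adjusted p = 1.36e-10 and 4.78e-08), and the glutaredoxin gene GRXS13 fell by 2.55 in flu1-5 ex1 and by 2.86 in flu1-1 ex1 (limma adjusted p = 1.11e-05 and 2.94e-09). The difference between the light effects was called higher in flu1-5 ex1 for 11 of these 12 genes and lower for 0, and for 2 of the 7 SIB partners tested, with 4 lower, where 11.3% of all genes were called higher and 18.3% lower. In the other lists it was called higher for 3 of 4 copine and BAP partners tested and 2 of 4 HIR genes, with 0 lower in each. For the 8 genes around OXI1 it was called higher for 2 and lower for 1, and AT3G50930 was not called.

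For 4 of the genes, those most like them across the 12 libraries were sought among 23394 genes, by the root mean square difference of log2(TPM + 1) after centring each gene on its own mean. BAP1 was closest to AT2G20142 (0.177), ACA1 (AT1G27770, 0.217) and MPK11 (AT1G01560, 0.231). ACA1 had 114 TPM in flu1-5 ex1 in light, 29.4 TPM in flu1-5 ex1 in dark, 22.1 TPM in flu1-1 ex1 in light and 12.6 TPM in flu1-1 ex1 in dark on average, a higher level with the same order of groups as BAP1. OXI1 was closest to AT3G50930 (0.207), FLOT3 (0.261) and CYP706A2 (AT4G22710, 0.309), so that 1 of its 3 nearest genes was another of the 10. SIB1 was closest to AT1G76600 (0.170), AT1G30190 (0.275) and AT4G24380 (0.277), and FLOT3 was its nearest among the 10 genes (0.523). The AAA-ATPase gene was closest to PEPR2 (AT1G17750, 0.0762), PUB29 (AT3G18710, 0.0973) and ACA2 (AT4G37640, 0.0996), where its own change is compressed by the 1 TPM added.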

How the data were processed

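The authors deposited 1 table per line with the TPM values of its 6 libraries and, for each gene, their own fold and p-value, per the file headers. The submitters' processing notes name kallisto 0.46.2, sleuth 0.30.0 and the build TAIR10, without role or order. That the values are TPM follows from the file headers and from library totals of 929954 to 935223. TPM keeps no read number, so no depth or counting error can be given, and a listed 0 can be a failed estimate. Levels of genes with near copies may be split between them.

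Values were analysed as log2(TPM + 1) with limma 3.58.1 in R 4.3.3 (trend and robust moderation, statmod 1.5.0), for genes that averaged 1 TPM or more in the fitted libraries. Fold changes on this scale understate those of low genes. All p-values are two-sided and Benjamini-Hochberg adjusted over all genes tested, and 0.05 was the threshold. Light minus dark was fitted in each line alone (6 libraries). Lines were compared, and the difference of light effects taken, in 1 fit of 12 libraries over genes with the same listed transcript in both tables, which left out 971 genes and none of the 10. Groups follow the library descriptions. The single batch value given for all libraries allows no comparison of batches.

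Gene positions, promoters and coding bases come from the RefSeq annotation of TAIR10.1, found by gene and transcript identifier (27444 of 27655 transcripts matched). The deposited tables hold no coordinates. The promoter of 1 of the 10 genes is not reported here. Coding sequences were aligned with Biopython 1.88. The procedure was tested on simulated data with independent noise, where changes were set only in genes clear of the lowest levels. That test does not cover changes in genes near or under the 1 TPM filter. The 10 genes, the 6 lists, the markers and the tests were chosen with earlier results of these data known. From each list, the called gene with the largest rise and that with the largest fall under light were named per line, and the 3 genes of most like pattern for 4 of the 10. Alternatives were quantile normalization, no filter, a filter at 5 TPM, added constants (pseudocounts) of 0.1 and 5 TPM, a replicate block, leaving out each library, the authors' deposited p-values, single-condition fits and keeping differing transcripts. A 2-fold rule and pseudocounts with no filter were added after seeing the data.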

Additional observations from a re-analysis of the deposited data

Results flagged for a closer look

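The light effect differed between flu1-5 ex1 and flu1-1 ex1, by the interaction term over 12 libraries, for 7 of the 8 genes tested (limma on log2(TPM + 1), adjusted p under 0.05), where 29.6% of 17830 genes were called and 11.3% in this direction. BAP2 reached the level tested through flu1-5 ex1 in light alone and so had to differ. The differences, flu1-5 ex1 minus flu1-1 ex1, were 2.47 for BON1, 2.20 for SIB1, 1.77 for BAP2, 1.61 for BAP1, 1.16 for FLOT3, 0.85 for OXI1 and 0.50 for SIB2. For OXI1 the difference was -0.0115 with 0.1 TPM added in place of 1 TPM. With 3 libraries per group, no test for a library far from the others of its group was made.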

How the results depend on the processing

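Requiring at least a 2-fold change besides the adjusted p lowered the genes called to 2732 for light in flu1-5 ex1, 3295 for light in flu1-1 ex1, 504 for the difference of light effects, 661 for the lines in light and 189 for the lines in dark (12297, 13097, 5273, 6972 and 3630 without it). Under that rule, by its construction, 3 of the 10 genes were called for light in flu1-1 ex1 and 2 for the lines in dark. Quantile normalization left 4 called for light in flu1-1 ex1, and the cause was not tested. The difference of light effects for OXI1 turned to -0.0115 with a pseudocount of 0.1 TPM, with or without the filter (limma adjusted p = 0.977 and 0.989). Its dark level was 1.28 TPM in flu1-5 ex1 and 0.321 TPM in flu1-1 ex1, and the cause was not tested. Leaving out each library kept every count of called genes, and of the 10 genes, within 1.5 times its value. Deviations of same-numbered libraries correlated at -0.049 to 0.143, highest for replicate 3 of flu1-1 ex1 in light and dark. Such values cannot show whether replicate numbers pair the samples. With the replicate block, 11956 and 13129 genes were called for light in flu1-5 ex1 and flu1-1 ex1, 4836 for the difference, 6779 for the lines in light and 3401 in dark. BON1 lost its call in flu1-1 ex1 with the block (limma adjusted p = 0.087), and no other of the 10 genes changed its call. Depth is unknown, and 3 libraries per group limit the precision.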
